A study of Homo sapiens and Mus musculus with 26 samples.

Results

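Processed pseudogenes are copies of a gene's spliced mRNA that were written back into the genome by retrotransposition. They carry no introns, most make no protein, and the genes that left the most copies are those with abundant, short mRNAs in the germ line, above all the ribosomal protein genes. Because a copy keeps nearly the whole sequence of the parent's mRNA, a short read from the parent can fit the copy as well, and a read count on a pseudogene can hold reads of either. The pseudogenes described here are those of cytosolic ribosomal proteins (RPL and RPS genes), elongation factor 1, heterogeneous nuclear ribonucleoproteins (HNRNP), the chaperones HSPA8 and HSPE1, GAPDH, PPIA, NPM1, tubulin beta, ferritin and keratins.

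Members were found by their symbol, a name of one of these families followed by P and a number. The families were chosen by the changes between PFOS and control that earlier results of these same data had shown, so every fold change, count of calls and median for a PFOS contrast below is a description and not evidence that these genes stand apart. Of 174 symbols that matched in the 2 human tables, 5 are protein-coding in RefSeq (KRTCAP2, KRTCAP3, RPS19BP1, RPSAP58 and HNRNPA1P48) and were set apart. The remaining 169 pseudogenes, of 18270 named genes in either table, were 135 in the EP table and 122 in the C1 table, with 88 in both. All 135 passed the filter on low reads in EP, as did all 16694 named genes of that table. In C1 120 of 122 passed, as did 17248 of 17335 named genes, and RPS27P4 and RPL5P23 did not.

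EP is the human embryonal carcinoma line 2102EP, from a testicular germ cell tumour, and C1 is a single cisplatin-resistant clone derived from it. PFOS (perfluorooctanesulfonic acid) is a persistent fluorinated surfactant. EP cultures received vehicle (DMSO, 2 libraries), 10 nM PFOS (2) or 5 µM PFOS (2), and C1 cultures vehicle (4) or 10 nM PFOS (4), each for 4 days. Libraries made from poly(A) RNA held 33.3 to 48.7 M reads on genes in EP and 25.6 to 32.8 M in C1, and the mouse testis libraries of the series were not used here. In EP all 13 embryonal carcinoma markers, among them POU5F1, NANOG and SOX2, were above 5 log2 CPM in every library, and 12 of 13 were in C1. Of the markers of other cells, the collagen genes COL1A1 and COL1A2 summed to 279 to 343 CPM in EP and 80.1 to 110 CPM in C1, DCN, LUM and all 3 blood markers had no row, and the summed CPM of the endoderm, Sertoli and Leydig markers stayed at or below 36.6. In bulk RNA, fewer cells that express a gene and less RNA of it per cell cannot be told apart.

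The deposited values are log2 CPM, that is log2 of the library-scaled read count (counts per 1 M reads, CPM) with a small prior count. Fold changes, given as log2 with the standard error (SE), are from limma's linear model over all genes of a table, and a gene was called at a Benjamini-Hochberg adjusted p under 0.05. The paper describes the cell RNA as 4 biological replicates, whereas the EP groups hold 2 libraries each. Nothing in the labels ties a library to a separate culture beyond its replicate number, so the errors measure the spread between these libraries.

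A pair of libraries stood apart from their replicates in these genes. At a mean of at least 1 log2 CPM, 35 of 13013 genes differed by over 2-fold between the EP 5 µM libraries. All 35 were lower in replicate 2, and 30 of them were pseudogenes of the set, 48.4% of the 62 at that level. Between the EP 10 nM libraries 0 genes did so, and between the EP control libraries 1 gene, which was no member. In C1, replicate 1 of the 10 nM group differed by over 2-fold from replicates 2, 3 and 4 in 109, 41 and 75 of 13312 genes, of which 13, 11 and 12 were among the 36 members at that level. Replicates 2 and 3 of that group differed so in 12 genes, 4 of them members. Replicates 2 and 4 did in 1 gene and replicates 3 and 4 in 6 genes, with 0 members in either pair. Among the C1 controls, 1 to 20 genes and 0 members differed so in any pair. The main counts, medians and named changes that use EP 5 µM replicate 2 or C1 10 nM replicate 1 are therefore also given without it.

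The sequences show how close copy and parent are. Aligned to the parent's mRNA, the 169 pseudogenes had a median identity of 95.9%, from 77.0% to 100%, over a median span of 713 bases. Of every stretch of 50 bases in a pseudogene, a median of 14.6% was present without a change in an mRNA of the parent. This share was 0% in 25 pseudogenes and 100% in 2. The 5 copies below are members on which the results turn, each over 90 aligned coding bases without a gap, chosen as the stretch with the most differences from the parent (hg38, 5′ to 3′ in the sense of the parent mRNA). Capitals mark the bases at which copy and parent differ.

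RPL39P3 (chr6:73373174-73373263, minus strand) is a copy of RPL39, a protein of the large ribosomal subunit. It has 0 differences over all 153 aligned coding bases, so 1 line stands for both.
RPL39P3: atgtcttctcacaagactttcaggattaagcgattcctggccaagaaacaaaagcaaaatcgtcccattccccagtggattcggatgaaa
EEF1A1P5 (chr9:133019690-133019779, plus strand) is a copy of EEF1A1, which brings aminoacyl-tRNA to the ribosome. It differs at 4 of 1386 coding bases.
EEF1A1P5: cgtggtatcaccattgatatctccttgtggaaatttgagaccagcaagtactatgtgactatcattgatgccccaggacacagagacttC
EEF1A1: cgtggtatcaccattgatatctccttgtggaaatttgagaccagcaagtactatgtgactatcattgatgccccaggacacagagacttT
RPS7P1 (chr17:28468199-28468288, plus strand), a copy of the small-subunit protein gene RPS7, differs at 5 of 582 coding bases.
RPS7P1: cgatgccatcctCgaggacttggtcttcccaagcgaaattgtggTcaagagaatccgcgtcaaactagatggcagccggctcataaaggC
RPS7: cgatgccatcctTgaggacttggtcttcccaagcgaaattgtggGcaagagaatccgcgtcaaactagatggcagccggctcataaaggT
RPL13P12 (chr17:17383782-17383871, minus strand), a copy of the large-subunit protein gene RPL13, differs at 10 of 633 coding bases.
RPL13P12: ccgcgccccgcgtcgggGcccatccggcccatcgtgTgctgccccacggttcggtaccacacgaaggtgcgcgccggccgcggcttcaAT
RPL13: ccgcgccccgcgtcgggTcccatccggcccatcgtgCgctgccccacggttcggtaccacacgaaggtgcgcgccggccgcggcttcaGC
RPS14P1 (chr1:206695898-206695987, minus strand) is an old copy of the small-subunit protein gene RPS14, with 44 differences over 453 aligned coding positions, of which 15 are gaps.
RPS14P1: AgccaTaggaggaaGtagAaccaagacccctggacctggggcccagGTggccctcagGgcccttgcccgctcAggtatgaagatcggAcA
RPS14: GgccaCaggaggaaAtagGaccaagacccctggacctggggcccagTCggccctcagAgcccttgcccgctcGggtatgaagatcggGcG
In the first of these windows a read cannot be placed by its bases at all, in the second by 1 base, and in the last by 10.

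Beyond what chose them, the pseudogenes shared few annotations. They came from 78 parent genes, of which 34 had a single copy in the set, and 116 of the 169 were copies of 58 ribosomal protein genes. They lay on 23 chromosomes, with 2 on the X chromosome. GENCODE 44 lists 142 of them, 134 as processed and 8 as unprocessed, the latter with 4 copies of KRT16 and KRT17 among them. RefSeq classes 19 as transcribed. A protein-coding or long noncoding host gene on the same strand contained 43, for example RPL22P1 in MECOM and RPL39P3 in OOEP.

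Most pseudogenes were counted at a small part of their parent's level. Per kilobase, with the canonical GENCODE transcript as the length of the parent, the CPM of a pseudogene was a median of 0.439% of its parent's in EP (132 pairs) and 0.261% in C1 (120 pairs). It was under 1% in 89 and 92 pairs and over 5% in 18 and 17. For 24 parents that transcript is over 2000 bases long, and with the pseudogene's length used for both the medians were 0.305% and 0.162%, a calculation added after the values had been seen. RPS2P5 reached 244 CPM per kilobase in EP and 183 in C1, which is 9.43% and 15.8% of RPS2, a small-subunit protein. RPL9P8 had 63.3 and 87.4 CPM per kilobase, 14.8% and 12.6% of RPL9. Both also stood among the most abundant members by log2 CPM, together with RPS3AP6, RPL39P3, RPS15P4, RPS2P46 and NPM1P27 in EP and with EEF1A1P5, RPS14P1, RPS14P2, RPL22P1 and RPL13P5 in C1.

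A few copies were counted above or near the parent gene. RPL36AP37, identical to RPL36A over its whole length, had 19.5 CPM per kilobase in EP against 0.744 for RPL36A, and 6.84 against 1.06 in C1. RPL39P3 had 36.5 against 26.0 in EP, where it reached 140% of its parent, but 7.28 against 79.2 in C1. RPS10P19 had 90.8% of RPS10 in EP and 50.9% in C1, RPL17P39 30.8% of RPL17 in EP and RPL17P7 49.7% in C1. Several of these parents are listed low for ribosomal protein genes, RPL36A below 0 log2 CPM in all 6 EP libraries and RPS10 at 1.40 to 2.20, while RPS2 was at 11.17 to 11.33. How the counting treated reads that fit several places is not given in the sources used here. The pseudogene and its parent are uncertain as separate genes for that reason.

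The level of a pseudogene was related to its identity to the parent. In EP the median level was 0.08 log2 CPM for the 56 pseudogenes under 95% identity, 0.21 for the 35 from 95 to 98% and 2.02 for the 44 at 98% or more, and Spearman's rho across the 135 was 0.39. In C1 the medians were -0.39, -0.22 and 1.02, with a rho of 0.26 across 122. These are correlations across genes that share libraries, and the identity classes were set after the values had been seen.

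In EP, more pseudogenes were below the controls than above them at both doses. At 10 nM 102 of 135 were lower and 33 higher, with a median log2 fold change of -0.29 where that of all 16694 genes was 0.01. In the model 20 of the 135 were called (14.8%), 10 higher and 10 lower, where 25.7% of all genes were called, 12.8% higher and 12.9% lower. Without replicate 1 or replicate 2 of the 10 nM group 9 members were called, where 14.4% and 15.0% of all genes were, and without control replicate 2 it was 11, where 29.6% were. The spread in that model is shared by all EP groups, 5 µM replicate 2 included. Fitted with only the 10 nM and control libraries, and so without that library, 46 members were called, 9 higher and 37 lower, where 22.8% of all genes were. At 5 µM 103 were lower and 32 higher, with a median of -0.60 against 0.01 over all genes. Here 65 were called (48.1%), 10 higher and 55 lower, where 26.9% of all genes were, 13.2% higher and 13.6% lower. Without replicate 2 of the 5 µM group the median was -0.24 and 28 members were called (8 higher and 20 lower), where 13.3% of all genes were. Without replicate 1 the median was -0.90 and 77 were called, where 16.3% of all genes were. A group left with 1 library is assumed in these fits to vary like the other groups.

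The parent genes did not share this direction. The 71 parents had a median log2 fold change of 0.04 at 10 nM and 0.06 at 5 µM. Many of them were called all the same, in both directions. At 10 nM 50 were called (70.4%), 25 higher and 25 lower, where 25.7% of all genes were. At 5 µM 46 were called (64.8%), 30 higher and 16 lower, where 26.9% of all genes were. The 215 processed pseudogenes of other genes had medians of -0.11 and -0.20. In 132 pairs the pseudogene's change was below the parent's in 90 at 10 nM and in 107 at 5 µM, and the median of its change minus the parent's was -0.25 and -0.59. Of the 65 members called at 5 µM, 13 had a parent called in the same direction, 30 a parent called in the opposite one and 22 a parent that was not called. Without 5 µM replicate 2 the pseudogene was below the parent in 87 pairs, by a median of 0.21 over all pairs, and the 28 called members had 4, 10 and 14 such parents. The same controls serve both doses.

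Single libraries show where the medians came from. Relative to the mean of the controls, the median pseudogene was at -0.24 and -0.33 in the 10 nM libraries and at -0.24 and -0.90 in the 5 µM libraries, while the controls were at -0.04 and 0.04. The control values mirror each other by construction, since they are taken from the mean of those same 2 libraries. The summed level of all 135 was 780 and 814 CPM in the controls, 804 and 764 at 10 nM, and 800 and 650 at 5 µM. The parents summed to 64947 and 64723 CPM in the controls, 65331 and 63962 at 10 nM, and 66178 and 66501 at 5 µM. The sum of the pseudogenes was thus lowest in 5 µM replicate 2, the library in which the sum of the parents was highest.

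**Figure D1:**
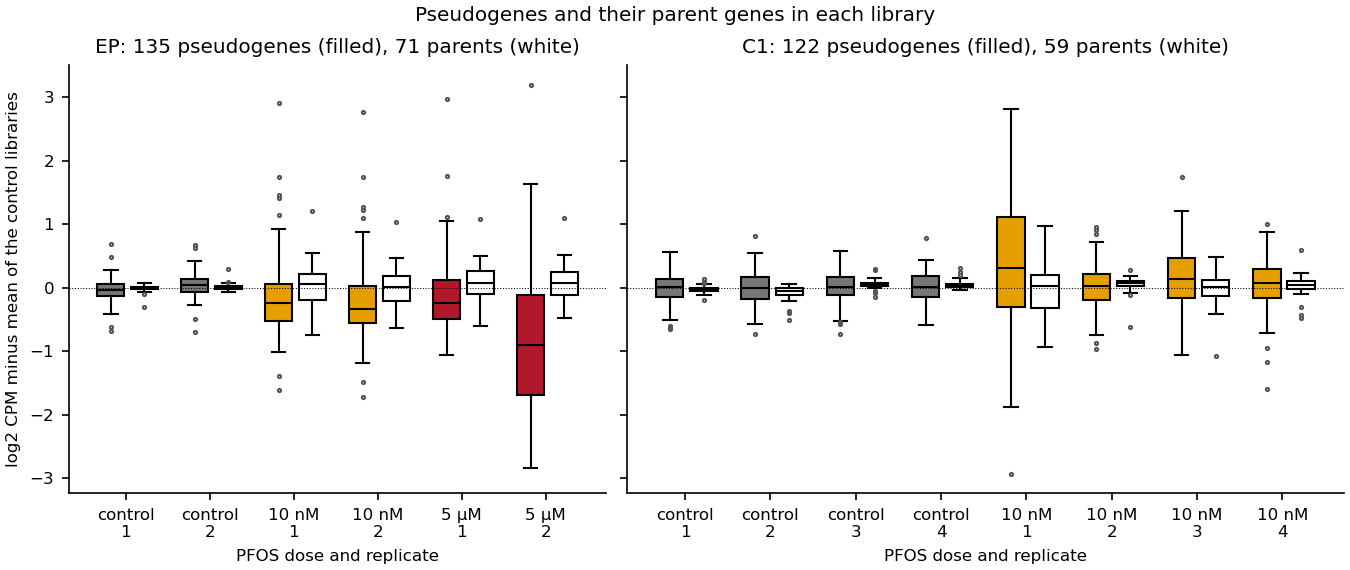
Box plots of the deviation of each pseudogene (filled boxes) and each parent gene (white boxes) from the mean of the control libraries, in log2 CPM, for every library. Boxes span the quartiles with the median as a line, whiskers reach 1.5 times the box and dots are genes beyond them. The EP 5 µM replicate 2 box has its median at -0.90 and the C1 10 nM replicate 1 box at 0.32, and the parents' boxes are widest in that C1 library, although their medians lie between -0.05 and 0.08 in all libraries.

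The members called higher in EP were 10 at each dose, and those described next lay above both controls in all 4 treated libraries. EEF1A1P5 was at 2.27 and 2.31 log2 CPM in the controls, 4.03 and 4.03 at 10 nM, and 4.05 and 3.90 at 5 µM, log2 fold changes of 1.74 ± 0.09 and 1.68 ± 0.09 (SE, n = 2 per group). EEF1A1 itself changed by 0.03 ± 0.04 and 0.05 ± 0.04. Thus all treated libraries of the copy lay above both controls while the parent stayed at 11.93 to 12.04 log2 CPM in all 6 libraries.

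HNRNPA1P38, a copy of the splicing regulator HNRNPA1, had 5 to 97 reads per library. It was at -2.16 and -2.13 log2 CPM in the controls, 0.76 and 0.62 at 10 nM, and 0.83 and 1.05 at 5 µM, changes of 2.83 ± 0.25 and 3.08 ± 0.25. Both controls were below the filter of 10 reads, scaled to the median library, so the copy passed it only through its treated libraries. HNRNPA1 changed by -0.23 ± 0.04 and -0.21 ± 0.04. The copy lay above and the parent below both controls in all 4 treated libraries.

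RPL22P1, 98.9% identical to the large-subunit gene RPL22, was at 1.87 and 1.33 log2 CPM in the controls, 3.06 and 2.82 at 10 nM, and 2.71 and 3.24 at 5 µM. RPS14P1, 89.4% identical to RPS14, was at 1.93 and 1.72, then 2.97 and 2.93, then 2.87 and 2.65. RPLP0P6, a copy of the ribosomal stalk gene RPLP0, was at 0.81 and 0.83, then 1.75 and 1.70, then 1.66 and 1.73. In these 3 copies all treated libraries lay above both controls, and the log2 fold changes were 0.90 ± 0.15 to 1.34 ± 0.18 at 10 nM and 0.87 ± 0.15 to 1.37 ± 0.18 at 5 µM. Their parents changed by -0.19 ± 0.04 (RPLP0) to 0.24 ± 0.04 (RPS14) at 10 nM.

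Smaller positive changes were those of RPL29P4 (0.77 ± 0.22 and 0.73 ± 0.22), RPL9P8 (0.39 ± 0.06 and 0.37 ± 0.06) and RPS2P5 (0.13 ± 0.04 and 0.20 ± 0.04). RPL21P80 had 1.35 ± 0.38 and 1.30 ± 0.38, from 4 to 32 reads per library, and at 10 nM 0.86 without control replicate 2 and 1.83 without control replicate 1. With single libraries left out, RPL21P80 at 10 nM and RPL29P4 at each dose lost their call in 3 of 4 fits. RPS28P4 was called at 10 nM (0.58 ± 0.19) and not at 5 µM (0.39 ± 0.19), and RPS14P2 at 5 µM (0.52 ± 0.13) and not at 10 nM (0.31 ± 0.13), and neither was called between the doses. Of the parents of these copies, RPL9 was higher as well, by 0.34 ± 0.04 and 0.41 ± 0.04, as was RPS14, while RPL29 changed by -0.16 ± 0.04 and -0.09 ± 0.04 and RPS2 by -0.11 ± 0.04 and -0.07 ± 0.04.

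Many members called lower at 5 µM were lowest in replicate 2 of that dose, among them the next 3. RPS7P1 was at 3.68 and 3.86 log2 CPM in the controls, 3.21 and 3.01 at 10 nM, and 3.04 and 1.95 at 5 µM. RPL13P12 was at 3.45 and 3.54, then 3.05 and 3.10, then 2.86 and 1.84. RPL39P3 was at 3.97 and 4.29, then 4.19 and 3.82, then 3.70 and 2.21. In all 3 both 5 µM libraries were below the controls, replicate 1 by less than 1 log2 unit and replicate 2 by more. The fold changes at 5 µM were -1.27 ± 0.22, -1.14 ± 0.20 and -1.17 ± 0.29, and without replicate 2 they were -0.73, -0.63 and -0.43. The parents RPS7, RPL13 and RPL39 changed by 0.37 ± 0.04, 0.39 ± 0.04 and 0.36 ± 0.09 at 5 µM, so parent and copy differed in direction.

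**Figure D2:**
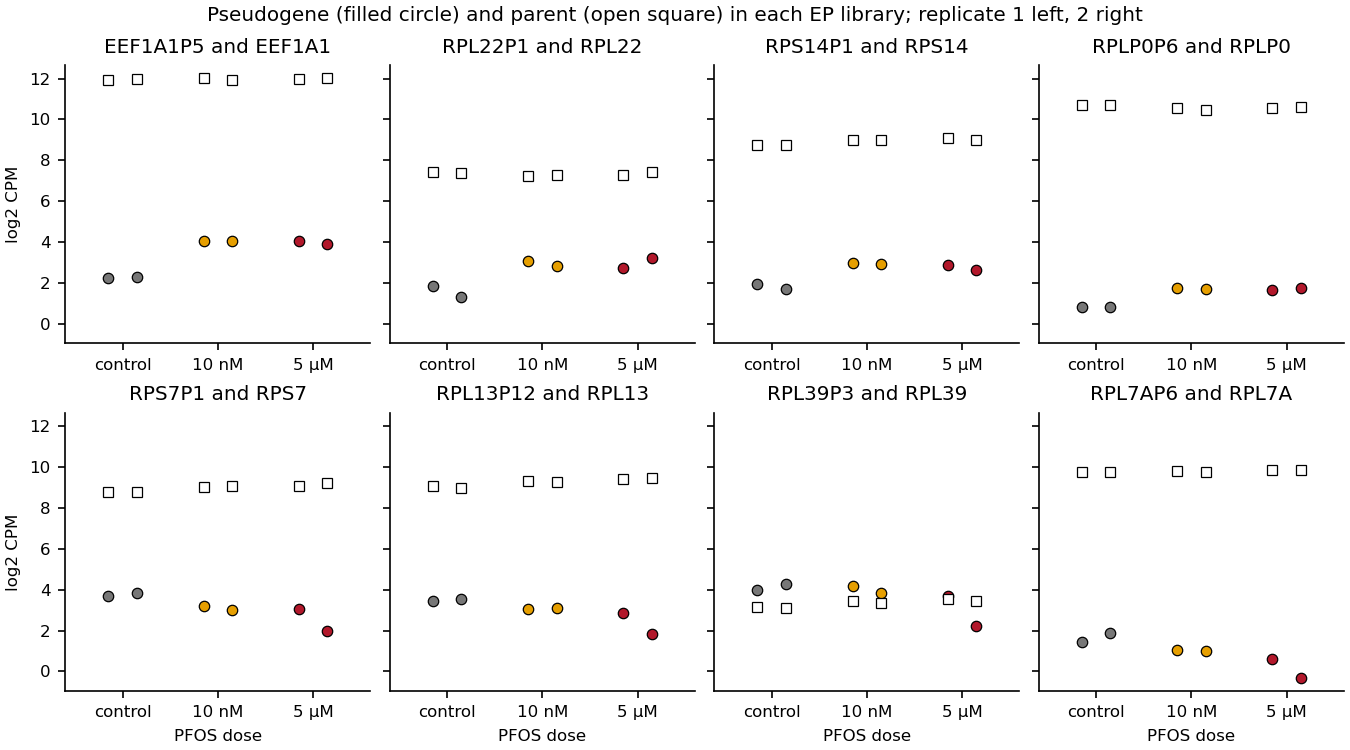
Log2 CPM of 8 pseudogenes (filled circles) and their parents (open squares) in each EP library, replicate 1 to the left and 2 to the right of each dose. In the upper row all treated circles lie above the control circles, and in the lower row the 5 µM replicate 2 circle is the lowest of its panel while the parents move by under 0.5 log2 units.

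The largest negative changes had the same form. RPS13P2 was at 1.50 and 1.75 log2 CPM in the controls, 0.63 and 0.52 at 10 nM, and 0.61 and -1.11 at 5 µM. RPS27P3 went from 0.70 and 0.98 to 0.22 and 0.23 and then to -0.06 and -1.96, and RPLP2P3 from 1.43 and 1.46 to 1.16 and 0.81 and then to 0.63 and -1.39. In these 3, replicate 2 of the 5 µM group was far below every other library, and replicate 1 was closer to the 10 nM libraries than to it. The fold changes at 5 µM were -1.87 ± 0.36, -1.85 ± 0.41 and -1.83 ± 0.41, followed by RPL10P9 at -1.59 ± 0.30 and RPL7AP6 at -1.54 ± 0.25. Without replicate 2 these 5 were between -1.06 (RPL7AP6) and -0.82 (RPLP2P3), while EEF1A1P5 was at 1.76 and HNRNPA1P38 at 2.97. At 10 nM, among members at a mean of at least 0 log2 CPM, RPS19P3 had -1.18 ± 0.31, RPS13P2 -1.05 ± 0.36, RPL10P9 -0.80 ± 0.30, RPL26P4 -0.78 ± 0.25 and RPL18AP6 -0.75 ± 0.35, of which RPL10P9 and RPL18AP6 were not called. With single libraries left out, RPS13P2 and RPL26P4 lost their call at 10 nM in 4 of 4 fits and RPS19P3 in 2. RPL26, the parent of RPL26P4, was itself lower, by -0.61 ± 0.05. RPL23AP7, in contrast, changed by -0.48 ± 0.14 at 10 nM, a call lost in 3 of those 4 fits, and its parent RPL23A by 0.42 ± 0.04.

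Between the doses, 0 of the 135 members were called by limma, as were 0.0% of all genes, and limma-voom called 0 as well. At an unadjusted p under 0.05 there were 40 members, 38 of them lower at 5 µM, where 3.31% of all genes passed. The median difference between 5 µM and 10 nM was -0.29. Leaving out 5 µM replicate 2 gave 0.02, with 4 members below that unadjusted p beside 1.61% of all genes. Leaving out replicate 1 gave -0.58, with 45 members called beside 0.353% of all genes. Leaving out 10 nM replicate 1 gave 10 members below that p beside 3.47% of all genes. The lowest members were RPLP2P3 (-1.37 ± 0.41), RPS27P3 (-1.24 ± 0.41), RPL39P3 (-1.05 ± 0.29), RPL26P6 (-0.98 ± 0.27) and RPL32P18 (-0.96 ± 0.23). Among the highest were RPS14P2 (0.21 ± 0.13), RPS3AP6 (0.13 ± 0.08), RPL32P3 (0.12 ± 0.18) and RPS20P27 (0.11 ± 0.21), none past the threshold.

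In C1, 0 of 120 members were called at 10 nM by limma, as were 0.0% of 17248 genes, and limma-voom again called 0. At an unadjusted p under 0.05 there were 14 members, all higher, where 16.0% of all genes passed. That number was 7 without control replicate 1, 33 without 10 nM replicate 2 and 23 without 10 nM replicate 4, and the share of all genes moved with it to 9.28%, 22.8% and 17.5%. The median log2 fold change was 0.16, with 78 members higher and 42 lower, against a median of 0.00 over all genes, 0.04 over 59 parents and 0.10 over 232 other processed pseudogenes. Without replicate 1 of the 10 nM group the median was 0.05. The medians per library were 0.32, 0.03, 0.13 and 0.07 at 10 nM, all above the controls at -0.01 to 0.02. The control values are deviations from their own mean, which holds them near 0.

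Replicate 1 of the 10 nM group held the highest value of each of the 5 members with the largest positive changes at a mean of at least 0 log2 CPM. RPL23AP42, 99.4% identical to the large-subunit gene RPL23A, was at 1.42, 1.70, 1.41 and 1.29 log2 CPM in the controls and at 3.77, 1.71, 1.92 and 1.94 with PFOS. FTH1P20, a copy of the ferritin heavy chain gene, was at 0.01, 0.21, -0.12 and -0.39, then 2.74, 0.57, 1.14 and 0.47. RPL7AP50 was at 0.33, 0.93, 0.21 and 0.48, then 3.19, 0.63, 1.69 and 0.79. The groups did not overlap in RPL23AP42 and FTH1P20 and overlapped in RPL7AP50, and in all 3 replicate 1 was over 1 log2 unit above every other library. The log2 fold changes were 0.88 ± 0.36, 1.30 ± 0.40 and 1.09 ± 0.44, beside 0.02 ± 0.06 for RPL23A and 0.16 for FTH1. RPS28P4, at 0.88 ± 0.45, had 3.76 log2 CPM in replicate 1 and 0.79, 2.12 and 1.74 in the others. Without replicate 1 the changes were 0.40 for RPL23AP42, 0.80 for FTH1P20, 0.55 for RPL7AP50 and 0.33 for RPS28P4, so all 4 kept their direction at a smaller size. EEF1A1P5 had 0.81 ± 0.33, or 0.47 without replicate 1, with 3.73 to 4.57 in the controls and 5.89, 4.06, 5.25 and 4.29 with PFOS.

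Of the 5 members with the largest negative changes at that level, 4 were lowest in the same library. HNRNPA1P38 was at 3.13 to 3.34 log2 CPM in the C1 controls and at 1.38, 3.55, 2.54 and 3.49 with PFOS, a change of -0.51 ± 0.37, or -0.06 without replicate 1. RPS14P1 was at 4.21 to 4.68 and then at 3.74, 4.71, 3.88 and 4.36, a change of -0.31 ± 0.18, or -0.16 without replicate 1. RPLP0P6 (-0.33 ± 0.20) and KRT8P36 (-0.32 ± 0.17), both at -0.19 without it, were the others, and EEF1A1P13 (-0.40 ± 0.19) was lowest in replicate 3. Treated and control libraries overlapped in each of these 5.

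The 2 tables were normalised separately, so levels across them are given side by side only. HNRNPA1P38 had a mean of -2.14 log2 CPM in EP controls, 0.94 in EP at 5 µM and 3.25 in C1 controls. RPS14P1 had 1.82, 2.76 and 4.48, and RPL22P1 1.60, 2.97 and 3.36. Among the lower ones, RPL13P12 had 3.50, 2.35 and 0.63, RPL39P3 4.13, 2.96 and 1.27, and RPS7P1 3.77, 2.50 and 1.59. In these 6, which were picked after their values had been seen, the EP mean at 5 µM lay between the control means of EP and C1. The same held for 59 of the 88 members in both tables (67.0%) and for 56.1% of all 15759 genes in both. With 5 µM replicate 1 alone it held for 59 members and 54.9% of all genes. The EP control mean is an end of every such comparison, so its error moves both differences from it the same way. These shares also set levels of separately normalised tables against each other, and are descriptions only.

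**Figure D3:**
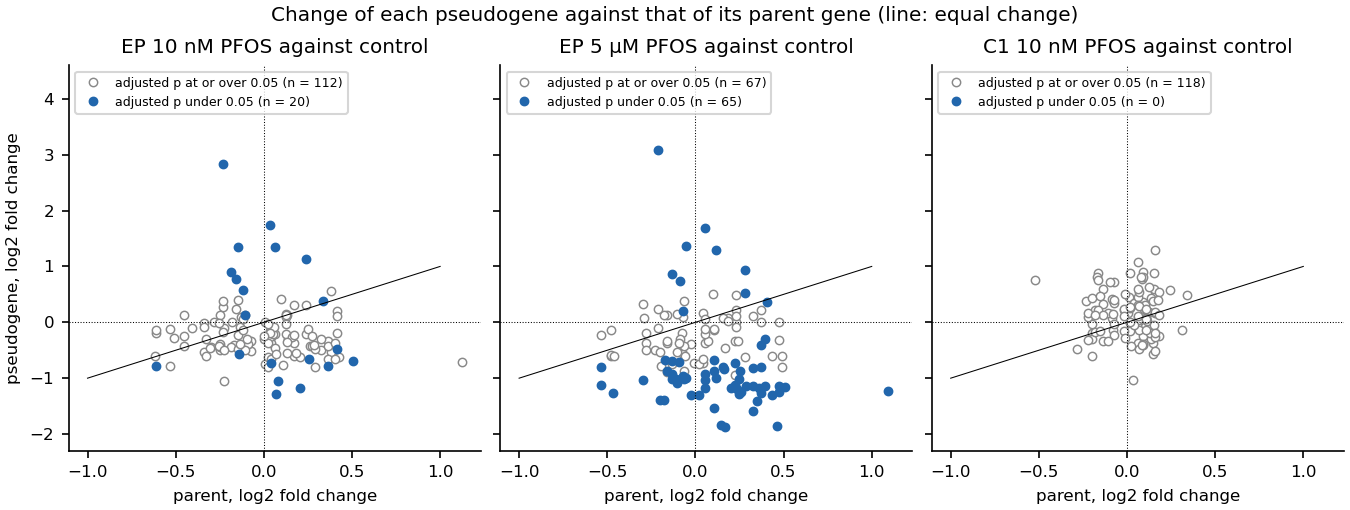
Log2 fold change of each pseudogene (y axis) against that of its parent gene (x axis) for EP at 10 nM (132 pairs), EP at 5 µM (132) and C1 at 10 nM (118), with filled points for members called at an adjusted p under 0.05 and the line marking equal change. Parents spread around 0 while most called pseudogenes at 5 µM lie below 0.

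The deviation of a pseudogene in the 2 libraries that stood apart went with its identity to the parent. In EP 5 µM replicate 2 the median deviation from the controls was -0.28 for pseudogenes under 95% identity, -1.13 from 95 to 98% and -1.43 at 98% or more. In replicate 1 of the same dose it was -0.10, -0.36 and -0.29. In C1 10 nM replicate 1 the medians were -0.02, 0.49 and 1.05, and in replicate 2 they were 0.08, 0.08 and -0.05. Replicate 3 of that group had 0.02, 0.24 and 0.20, a smaller step in the direction of replicate 1, and replicate 4 had 0.09, 0.06 and 0.06. By class medians, the libraries that stood apart thus differed most in the copies closest to their parents, downward in EP and upward in C1. Relative to the controls, summed CPM did not follow that order. In EP 5 µM replicate 2 it was 87.0 under 95% identity, 140 from 95 to 98% and 423 at 98% or more. The EP controls had 118 and 119, 180 and 194, and 482 and 501. In C1 10 nM replicate 1 the sums were 99.4, 113 and 395. The C1 controls had 115 to 122, 75.6 to 79.7 and 327 to 351. Spearman's rho of identity and deviation was -0.32 in the EP library (135 genes) and 0.39 in the C1 library (122 genes). In the other EP libraries it was -0.14 in 5 µM replicate 1, 0.12 and -0.07 at 10 nM, and -0.14 and 0.14 in the controls. The EP control values mirror each other by construction. In C1 10 nM replicate 2 it was -0.21. In C1 10 nM replicates 3 and 4 it was 0.15 and -0.07, and in the C1 controls -0.12 to 0.23.

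**Figure D4:**
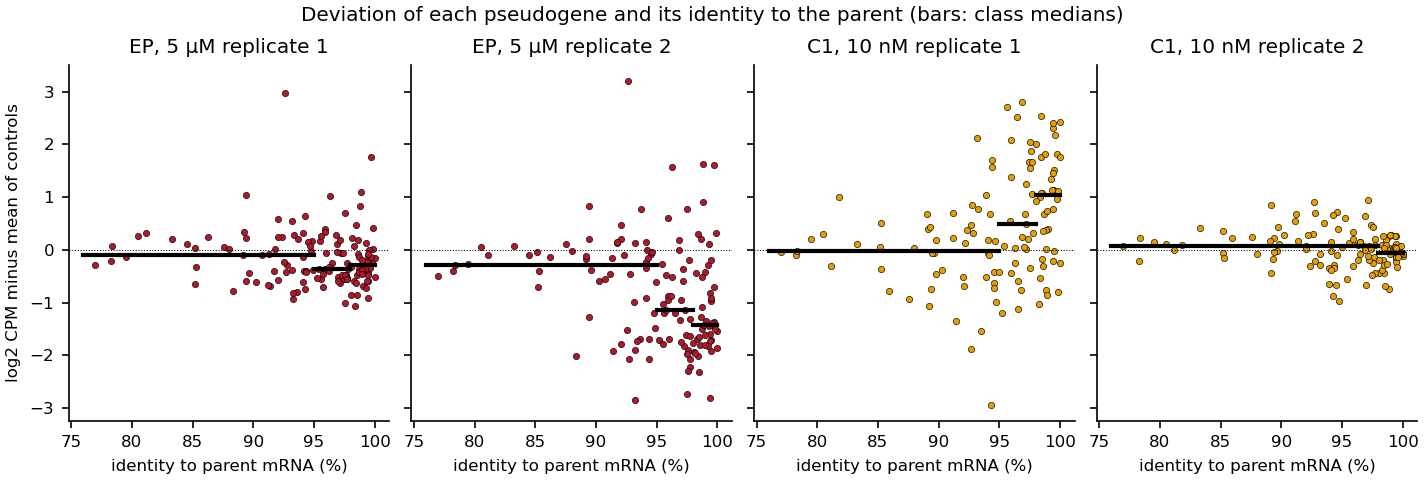
Deviation of each pseudogene from the control mean (log2 CPM, y axis) against its identity to the parent mRNA (%, x axis) in 4 libraries, with bars at the medians of the 3 identity classes. In EP 5 µM replicate 2 the bars step down to -1.43, in C1 10 nM replicate 1 they step up to 1.05, and in the other 2 libraries they stay between -0.36 and 0.08.

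Other transcripts differed in the C1 library as well. The 2 mitochondrially encoded rRNAs summed to 27234 CPM in C1 10 nM replicate 1 and to 14285 to 18427 CPM in the other C1 libraries, and the 14 mitochondrially encoded tRNAs with a row in C1 summed to 272 CPM there, 131 in replicate 3 and 77.8 to 90.1 elsewhere. In the EP library both sums lay within the range of the other treated libraries. The rRNAs there summed to 9509 CPM in 5 µM replicate 2 and 9701 in replicate 1, 8009 and 11776 at 10 nM, and 11656 and 13607 in the controls. The replication-dependent histone genes, whose mRNAs lack a poly(A) tail, summed to 54.9 to 58.6 CPM in EP and 47.1 to 64.4 in C1. Their part in the pseudogene values was not tested. Reads on genes were 48.1 M in the EP library and 28.2 M in the C1 library, within the range of the others, and the recovered normalization factor of C1 10 nM replicate 1 was 0.955, the lowest of its table. The 35 members inside a host gene on the same strand deviated by a median of -0.39 in EP 5 µM replicate 2 and the 100 others by -1.20. In C1 10 nM replicate 1 it was 0.35 with a host and 0.28 without.

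Of the parents with 5 or more copies in the set, each family held members of both directions except RPL7A in EP. The 5 copies of RPL7A, a large-subunit protein, were lower at both doses, by -0.10 to -0.72 at 10 nM and -0.12 to -1.54 at 5 µM, with 1 and 3 called. Without 5 µM replicate 2 all 5 were lower at 5 µM, by -0.08 to -1.06, with 1 called. RPL7A itself changed by 0.04 ± 0.04 and 0.11 ± 0.04. In C1 3 of 4 RPL7A copies were higher, with a median of 0.47, or 0.36 without 10 nM replicate 1. The 5 copies of KRT8, a keratin of simple epithelia and embryonal carcinoma, ranged from -0.21 to 0.14 at 10 nM and -0.09 to 0.49 at 5 µM (0.03 to 0.34 without replicate 2) with 0 called, while KRT8 changed by 0.12 ± 0.04 and 0.23 ± 0.04. Of the 4 copies of RPL23A in EP, 1 was called at 10 nM and 2 at 5 µM, all lower, or 0 at 5 µM without replicate 2, and RPL23A changed by 0.42 ± 0.04 and 0.37 ± 0.04. Of the EEF1A1 copies 2 were in the EP table, EEF1A1P5 and EEF1A1P6, the second at -0.15 ± 0.30 and -1.03 ± 0.30, or -0.47 without 5 µM replicate 2. The 8 in C1 ranged from -0.40 to 0.90. Of the HNRNPA1 copies 3 were in EP, with medians of 0.38 and 0.23 that rest on few reads, and 7 in C1, from -0.51 to 0.56.

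The 5 protein-coding genes that share the naming pattern gave other values. RPS19BP1, a binding partner of RPS19, was higher by 0.24 ± 0.06 and 0.36 ± 0.06 in EP and changed by -0.33 ± 0.13 in C1. KRTCAP2 had 0.22 ± 0.08 and 0.24 ± 0.08 in EP, RPSAP58 0.28 ± 0.07 and 0.24 ± 0.07, HNRNPA1P48 0.33 ± 0.11 and 0.13 ± 0.11, and KRTCAP3 0.08 ± 0.10 and 0.03 ± 0.10. RPSAP58 and HNRNPA1P48, which bear the names of copies of RPSA and HNRNPA1, both lay above the EP controls in all 4 treated libraries.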

How the data were processed

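Reads were trimmed with Trimmomatic, aligned with STAR to GRCh38 and counted per gene with featureCounts by the authors, from stranded poly(A) libraries, per the paper's methods. How reads with several matches were counted is not given in the sources used here. The deposited values are log2 CPM with a prior count (3.00 reads in EP, 2.90 in C1). Whole reads were recovered from the spacing of the deposited log2 values for 100% of them (tolerance 0.02 reads), and 0 columns had no matching sample. In EP 4 rows without a name (at most 0.000443% of reads) were left out, and 13 names read as dates.

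Members and gene lists were chosen with earlier results of these data known. The filter asked for 10 reads or more, scaled to the median library, in 2 libraries (EP) or 4 (C1). Genes that passed were tested with limma 3.58.1 (R 4.3.3; lmFit, eBayes with trend) over all groups of a table, with Benjamini-Hochberg adjusted p-values over 16694 (EP) or 17248 (C1) genes. Since the unit is log2 CPM, no count model was used, and the fit was tested on simulated data. No p is given for single members, because the same contrasts chose them; the exact permutation over libraries of 34 pseudogene and parent pairs in C1 is not printed for that reason. Named members are, per comparison, the 5 highest and 5 lowest fold changes at a mean of at least 0 log2 CPM and the called members (10 smallest p), and, per table, the 8 most abundant, the 5 nearest to or above the parent's level and the 5 with most windows in the parent, with parents and families of 5 or more; 1 member and its parent are not reported here. Positions and classes are from RefSeq (GRCh38.p14) and GENCODE 44, and identity is from blastn 2.17.0 against the parent's GENCODE mRNA. The mouse table was not used here. Alternatives were dropping the filter, requiring 50 reads on average, limma-voom, priors of 1 and 0.1 reads, median-of-ratios scaling, a replicate block, only the 2 groups compared, each library left out, annotated processed pseudogenes alone, pseudogene and parent reads summed, and, added after the data were seen, the pseudogene's length used for the parent.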

Additional observations from a re-analysis of the deposited data

Results flagged for a closer look

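In C1 at 10 nM PFOS, 1 library was far from the other 3 in the summed level of the pseudogenes, with 607 CPM in replicate 1 against 554 to 560 CPM, a gap of 0.894 of the group's range. RPL23AP42 was far in the same library, at 3.77 log2 CPM against 1.71 to 1.94, a gap of 0.889 of the range. These are 2 of 46 groups of 4 libraries tested in this way, and chance flags about 1 in 20.

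The median pseudogene went in opposite directions at 10 nM PFOS in the 2 lines, with a log2 fold change of -0.29 in EP, where both treated libraries were below the controls, and 0.16 in C1, where all 4 were above them. The same held for RPL23AP42, at -0.20 in EP and 0.88 in C1, and for RPL7AP6, at -0.66 and 0.59. Of the 88 members in both lines, 3 (3.41%) showed this in every library, the third being RPLP1P6, as did 3.35% of all 15732 genes tested in both. Some margins were narrow. The nearest C1 medians were 0.03 at 10 nM and 0.02 in a control, and RPL23AP42 in EP was at 2.06 at 10 nM and 2.07 in a control. Without C1 10 nM replicate 1 the C1 median was 0.05 and the change of RPL23AP42 in C1 was 0.40. The difference between the lines was not tested, since their tables were normalised separately.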

How the results depend on the processing

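Summing the reads of each pseudogene with its parent gave median log2 fold changes of 0.0777 (EP, 10 nM), 0.10 (EP, 5 µM), 0.0449 (5 µM against 10 nM) and 0.0329 (C1); these sums are mostly parent reads by construction. Fitting only the 2 groups compared takes the spread from those groups alone, so 5 µM replicate 2 does not enter the 10 nM fit. It gave 46 members called at 10 nM in EP and 1 gene in all between the EP doses. The cause of the change in calls was not tested. Leaving out single libraries gave 2405 to 4938 genes and 9 to 15 members called at 10 nM in EP, 2223 to 5051 genes, 28 to 77 members and medians of -0.90 to -0.24 at 5 µM, 0 to 59 genes, 0 to 45 members and medians of -0.58 to 0.0176 between the doses, and 0 to 7 genes and medians of 0.0529 to 0.20 in C1. The summed CPM of members at 5 µM changed by -0.30 to 0.01 on the log2 scale. The other alternatives kept these counts within 1.5 times and the medians in direction. Replicate numbers did not pair the libraries (correlations of same-numbered deviations -0.19 to 0.07); with the replicate block, 25, 66, 0 and 0 members were called, and the block changed no count of members by over 1.5 times. Of 530 values of named members under alternatives, 0 called values changed direction, 24 were no longer called and 10 became called. Depth limits members near 10 reads most, such as RPL21P80.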
